A study of Homo sapiens and Mus musculus with 16 samples.

Results

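The accessible regions around the 5 GATA genes GATA2, GATA3, GATA4, GATA5 and GATA6 were described in a human and a mouse model of pancreatic ductal adenocarcinoma (PDAC). A region belonged to a GATA locus where it overlapped the gene body or the 100 kb on either side of it, in hg38 for the human genes and in mm10 for their mouse orthologs. By this rule the loci held 102 of 118107 regions in HPAF-II control (Cas9) cells and 97 of 97047 in HPAF-II HNF4G-KO cells. They held 94 of 68074 regions in the KPC primary tumor line and 91 of 80843 in the KPC liver mets line, so that 384 regions were described in all.

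Chromatin accessibility was assayed by ATAC-seq, in which a transposase cuts DNA that nucleosomes leave open. HPAF-II is an established human PDAC cell line. Its HNF4G-KO cells are a pool of CRISPR clones with a disrupted nuclear receptor gene HNF4G, and its control cells carry Cas9. The study describes the clones as knockouts with heterozygotic frameshift mutations and writes the pool as HNF4G-/-. KPC lines come from a genetically engineered mouse model of PDAC, and here a primary tumor line was set beside the liver mets line matched to it, both untreated. Each of the 4 groups had 4 replicates but was represented by a single region list, so no value was held per replicate, the read depth was unknown and no difference below has a replicate check. The scores of a list were used only as ranks. A score percentile of 100 is the strongest region of its own list and the median of every list is near 50. Regions with 1 bp or more in common with a region of the paired list were called shared, the rest are called one-list regions, and Wilson 95% intervals cover counting error only. All 5 epithelial marker genes examined (EPCAM, KRT8, KRT18, KRT19 and CDH1) had a listed region over a start site in every list. None of 3 blood markers and none of 2 endothelial markers did. Both fibroblast markers and 1 of 3 hepatocyte markers had such a region in the HPAF-II lists, and none did in the KPC lists. Region lists do not measure whether the HNF4G protein was lost.

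GATA factors are zinc finger proteins that bind DNA sequences built around the letters GATA, and several of them can open compacted chromatin. GATA4, GATA5 and GATA6 act mainly in endoderm and heart, and GATA6 is a marker of the classical subtype of PDAC. GATA2 and GATA3 are best known from blood, endothelium and the breast and skin epithelium, and partner with nuclear receptors and FOXA1 in other cancers.

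The clearest element found in both species lay upstream of GATA5. It is shown because it was listed in all 4 lists and carried an HNF4 consensus (CAAAGTCCA) and an AP-1 consensus (TGAGTCA or its reverse complement TGACTCA) that aligned in both genomes. Capitals mark these matches. Both stretches are written 5′ to 3′ on the strand of the gene, the human one from chr20:62489565-62489801 in hg38 and the mouse one from chr2:180343238-180343470 in mm10.
human GATA5 upstream element: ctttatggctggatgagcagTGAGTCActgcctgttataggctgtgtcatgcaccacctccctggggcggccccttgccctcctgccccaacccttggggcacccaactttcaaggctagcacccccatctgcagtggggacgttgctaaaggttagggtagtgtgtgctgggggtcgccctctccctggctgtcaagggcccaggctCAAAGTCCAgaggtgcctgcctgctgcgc
mouse Gata5 upstream element: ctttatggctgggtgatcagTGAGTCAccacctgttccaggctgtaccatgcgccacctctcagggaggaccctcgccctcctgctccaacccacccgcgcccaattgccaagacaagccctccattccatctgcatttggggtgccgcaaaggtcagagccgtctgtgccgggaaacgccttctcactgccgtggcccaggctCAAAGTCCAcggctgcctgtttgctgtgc

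In the human stretch the AP-1 and HNF4 matches stand in the same order and orientation as in the mouse stretch, with the HNF4 match nearer to the gene. The surrounding regions aligned over 514 columns with 71.0% identity. The human region was 1033 bp wide in control cells, with its center 13.7 kb upstream of the GATA5 start, at a score percentile of 89.0 in control and 93.1 in HNF4G-KO. Its mouse counterpart, 9.2 kb upstream of Gata5, stood at 64.0 in the primary tumor and 67.9 in mets. An HNF4 match of this kind was found in 1.60% of all control regions, 1.40% of HNF4G-KO regions, 1.48% of primary tumor regions and 1.28% of mets regions, and AP-1 matches in 31.4%, 31.8%, 38.3% and 36.4%. A match is a description of the letters and does not show that a factor was bound.

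A second pair of sequences was taken from the intergenic DNA downstream of GATA3, where the human region was the strongest at its locus in control cells and its aligned mouse counterpart the second strongest in the primary tumor. Capitals mark AP-1 matches. The human stretch is chr10:8131369-8131606 in hg38 and the mouse stretch chr2:9803004-9803163 in mm10, each on the strand of the gene.
human GATA3 downstream element: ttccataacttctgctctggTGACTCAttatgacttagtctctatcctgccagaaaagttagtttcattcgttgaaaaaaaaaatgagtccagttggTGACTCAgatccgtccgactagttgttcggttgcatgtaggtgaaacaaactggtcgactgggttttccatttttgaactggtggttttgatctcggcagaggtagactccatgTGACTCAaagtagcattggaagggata
mouse Gata3 downstream element: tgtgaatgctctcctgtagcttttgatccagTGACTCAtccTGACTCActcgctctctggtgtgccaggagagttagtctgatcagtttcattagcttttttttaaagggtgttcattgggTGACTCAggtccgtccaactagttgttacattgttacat

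The human region held 3 AP-1 matches and 1 GATA match (AGATAAG), the latter outside the stretch shown. Of its AP-1 matches, 2 were AP-1 matches in the aligned mouse DNA and 1 was not (590 aligned columns, 67.8% identity). Its score percentile was 80.5 in control and 76.3 in HNF4G-KO, at 86.1 kb from the GATA3 start. The mouse counterpart at 86.9 kb stood at 93.6 in the primary tumor and 88.8 in mets.

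At GATA2 and GATA3 no listed region covered the outermost start site in HPAF-II, and a region covered an inner one. Most annotated starts were not covered, with 2 of 10 GENCODE start sites of GATA2 in a region in both lists, and 1 of 5 of GATA3 in control and 2 in HNF4G-KO. The RefSeq start windows of GRCh38.p14 (250 bases before the start in lower case and 50 bases after it in capitals) are shown for the outermost start and the inner start covered in full, 2 of 2 windows for GATA2 and 2 of 6 for GATA3. They lie at chr3:128493152-128493451 and chr3:128488481-128488780 on the minus strand for GATA2 and at chr10:8045083-8045382 and chr10:8053391-8053690 on the plus strand for GATA3.
GATA2 outer start: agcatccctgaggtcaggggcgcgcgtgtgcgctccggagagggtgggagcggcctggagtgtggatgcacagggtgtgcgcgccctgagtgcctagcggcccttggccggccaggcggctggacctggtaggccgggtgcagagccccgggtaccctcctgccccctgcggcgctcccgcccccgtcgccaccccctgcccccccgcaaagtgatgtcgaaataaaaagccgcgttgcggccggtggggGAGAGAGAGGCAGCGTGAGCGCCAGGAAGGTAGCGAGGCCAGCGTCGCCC
GATA2 inner start: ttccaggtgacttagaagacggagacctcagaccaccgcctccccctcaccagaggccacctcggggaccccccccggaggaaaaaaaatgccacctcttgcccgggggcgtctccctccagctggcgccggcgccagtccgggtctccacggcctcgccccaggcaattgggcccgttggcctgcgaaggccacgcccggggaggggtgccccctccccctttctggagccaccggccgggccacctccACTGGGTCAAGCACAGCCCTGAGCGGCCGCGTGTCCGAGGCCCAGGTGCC
GATA3 outer start: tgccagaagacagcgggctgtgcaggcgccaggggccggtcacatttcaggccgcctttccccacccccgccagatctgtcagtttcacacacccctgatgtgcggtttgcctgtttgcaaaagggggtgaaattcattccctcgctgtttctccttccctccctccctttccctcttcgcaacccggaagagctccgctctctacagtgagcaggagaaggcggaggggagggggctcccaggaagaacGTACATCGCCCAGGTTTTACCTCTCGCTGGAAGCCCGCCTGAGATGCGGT
GATA3 inner start: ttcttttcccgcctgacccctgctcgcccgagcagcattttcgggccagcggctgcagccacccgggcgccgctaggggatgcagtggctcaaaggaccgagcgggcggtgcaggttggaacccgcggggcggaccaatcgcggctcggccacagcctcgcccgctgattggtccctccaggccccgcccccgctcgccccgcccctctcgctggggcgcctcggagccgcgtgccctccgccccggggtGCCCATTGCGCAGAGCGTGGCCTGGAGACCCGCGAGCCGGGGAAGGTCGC

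No base of either outer window lay in a listed region of HPAF-II. All 300 bases of both inner windows lay in a listed region of both HPAF-II lists. The outer and inner GATA2 windows had a GC content of 72.3% and 71.3% with 29 and 22 CG pairs, against 60.7% and 74.7% with 16 and 36 CG pairs for GATA3, and the median over 35116 RefSeq start windows was 14 CG pairs. Of 10 consensus sequences searched on both strands, the inner GATA2 window held a KLF match (GGGCGTGGC or GGGTGTGGC), as did 3.38% of all windows, and the other 3 windows held none.

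Most regions at the human GATA loci were shared between control and HNF4G-KO. Of 102 control regions, 18 were control-only (17.6%, Wilson interval 11.5 to 26.2), against 25.0% of all control regions. Of 97 HNF4G-KO regions, 10 were KO-only (10.3%, 5.70 to 17.9), against 6.76%. Both whole-list shares lie inside the intervals. The side on which the loci fell changed with the setting. With a 10 kb window 9 of 25 control regions were control-only (36.0%), and with 50% reciprocal overlap 17 of 97 HNF4G-KO regions were KO-only (17.5%, against 17.5% of the whole list). With the strongest 87342 regions of each list, control-only regions numbered 5 of 75 (6.67%, against 13.7% of the whole list) and KO-only regions 10 of 81 (12.3%, against 11.7%), which turned the order of the 2 counts.

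In the mouse pair, 12 of 94 primary tumor regions were tumor-only (12.8%, 7.46 to 21.0), against 8.51% of the list. Of 91 mets regions, 8 were mets-only (8.79%, 4.52 to 16.4), against 20.2%, a share above the interval. With the strongest 61266 regions of each list, 15 of 84 primary tumor regions were tumor-only (17.9%, against 14.5%) and 1 of 70 mets regions was mets-only (1.43%, against 13.0%). With both lists cut to their upper 50% by score, a region whose partner fell below the cut also counts as one-list. Counted so, the share at the loci was above that of the list in mets, with 11 of 43 regions (25.6%, against 22.2%). No mets-only region of the full lists stood above 28.0, so these 11 were shared there. In the primary tumor the share after the cut was also above its list, with 9 of 41 regions (22.0%, against 8.46%). Without a cut, most one-list regions at the GATA loci were weak, as they were over the whole lists. Their median percentile was 16.1 in control, 5.32 in HNF4G-KO, 9.33 in the primary tumor and 8.61 in mets. Over the whole lists it was 17.9, 11.5, 11.6 and 19.4 in the same order. The strongest control-only region stood at percentile 43.5, the strongest KO-only region at 29.5 and the strongest mets-only region at 28.0, and only the tumor-only regions reached higher, to 70.0.

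The 5 strongest regions of each gene set the loci apart by rank. In control cells they spanned percentiles 75.1 to 98.6 at GATA6, 84.1 to 95.8 at GATA5, 81.0 to 95.6 at GATA4, 60.1 to 98.2 at GATA2 and 44.1 to 80.5 at GATA3. In HNF4G-KO the spans were 75.0 to 98.5, 85.7 to 93.1, 77.3 to 96.5, 73.9 to 98.7 and 29.5 to 77.8 in the same order. GATA3 was the only human locus with no region above percentile 90 in either list. In the primary tumor the spans were 82.1 to 96.0 at Gata6, 64.0 to 76.1 at Gata5, 76.3 to 95.8 at Gata4, 44.2 to 64.9 at Gata2 and 76.6 to 95.2 at Gata3. In mets they were 69.3 to 89.3, 68.4 to 88.2, 70.2 to 95.9, 40.8 to 70.8 and 79.4 to 91.7. Gata2 had the lowest ranks in both KPC lists, and the strongest Gata6 regions of the primary tumor stood lower in mets. These spans cover the whole window, so neighbors of the GATA genes are included.

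Shared regions were compared by the change in score percentile between the lists, where a fall or rise means a change of over 10 points and carries no test. Of 84 control regions shared with HNF4G-KO, 22 fell by over 10 points and 10 rose by over 10 points. Over all shared control regions 33.6% fell and 7.75% rose by this measure. The median change was -1.45 points, against -4.65 over all shared control regions. Ranked among shared regions alone, it was 3.07 against 0.676, so the sign depended on the ranking, and 27 of the 84 regions then stood lower and 57 higher in HNF4G-KO. Over all 88632 shared control regions, 41332 stood lower and 47300 higher by that ranking.

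Of 82 primary tumor regions shared with mets, 14 fell by over 10 points, against 12.4% of all such regions, and 27 rose, against 30.8%. The median change was 3.74 points (3.67 over all shared regions), and -0.246 when ranked among shared regions alone (0.988 over all). Here the pooled value hides a difference in direction between genes. At Gata6 the median change was -7.83 points, with 6 of 8 shared regions lower in mets, whereas at Gata5 it was 10.2 points, with 15 of 20 higher. Over all 62280 shared primary tumor regions, 21833 were lower and 40446 higher in mets. Ranked among shared regions alone, the values were -10.6 and 6.34. At Gata2, Gata3 and Gata4 the median changes were -3.42, 0.613 and 4.65 points. Those genes had -7.82, -3.59 and 0.235 when ranked among shared regions alone, so falls were not particular to Gata6. Over all shared regions of the chromosome, the median change was 0.79 points for Gata6 and 2.81 for Gata5. In the primary tumor the shared regions had a median percentile of 85.4 at Gata6 and 52.3 at Gata5, so those at Gata6 had less room to rise. The difference between these genes was not tested.

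**Figure D1:**
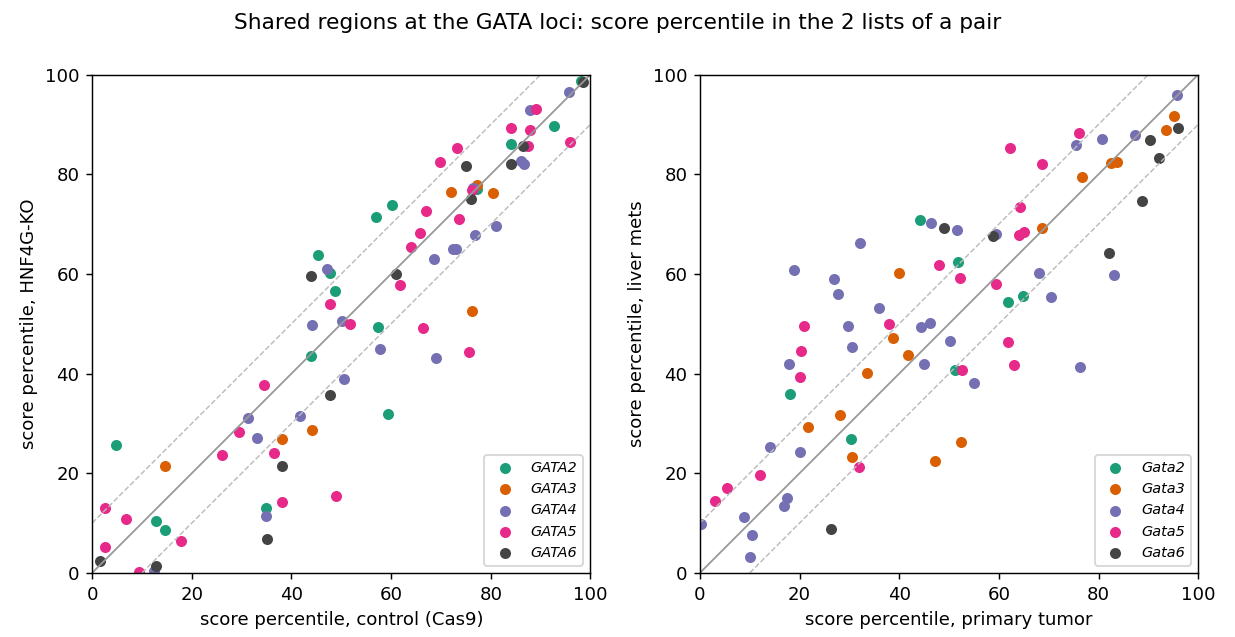
Score percentile of each shared region at the GATA loci in the 2 lists of its pair, control (Cas9) against HNF4G-KO on the left and primary tumor against liver mets on the right, both on linear axes from 0 to 100. Each point is 1 region of the control or primary tumor list, the solid line marks equal percentiles and the dashed lines a difference of 10 points. Points above percentile 90 in control or the primary tumor lie between the dashed lines. The mouse Gata6 points above percentile 80 lie below the line of equality.

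GATA6 was the only member with an accessible region over its outermost start in HPAF-II. The locus lies at chromosome 18, 22169589 to 22202528, on the plus strand, and no other protein-coding gene lies in its window. The start-site region of 1980 bp covered both annotated start sites and stood at percentile 76.0 in control. In HNF4G-KO the same stretch was listed as 2 regions, at 75.0 and 41.6. Its 2 GATA consensus matches both aligned with GATA matches in the mouse start-site region, which stood at 58.8 in the primary tumor and 67.7 in mets. A GATA match was found in 6 of 102 control regions at the GATA loci (5.88%) and in 6.63% of the whole list.

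The strongest GATA6 region lay 54.2 kb beyond the start, in an intron of a long noncoding transcript, and differed little between the lists (98.6 in control, 98.5 in HNF4G-KO). It held 1 HNF4 and 1 AP-1 match. A part of it (131 columns, 76.3% identity) aligned with a KPC region 49.0 kb from the Gata6 start, at 90.3 in the primary tumor and 86.9 in mets, and the AP-1 match was kept in the mouse DNA. The regions 113.0 and 117.3 kb from the start followed, at 86.4 and 84.1 in control and 85.6 and 82.0 in HNF4G-KO. Another at 81.3 kb stood at 75.1 and 81.7.

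Inside the GATA6 gene, weaker regions were lower or not listed in HNF4G-KO. Over the whole control list, 62050 of 88632 shared regions were also lower, and 25.0% of all regions were control-only. An intronic region 24.8 kb from the start, with a GATA match kept in the mouse DNA, stood at 35.0 in control and 6.85 in HNF4G-KO. A neighbor at 7.4 kb stood at 12.8 and 1.31. Ranked among shared regions alone, these changes were -14.2 and -3.71 points. Control-only regions lay 17.2 and 21.5 kb into the gene, at percentiles 1.53 and 2.27, and 84.8 kb upstream, at 14.6. The single KO-only region, 60.6 kb upstream, stood at 6.36. These one-list regions were near the bottom of their lists. In the other direction, a region 72.5 kb from the start with 2 FOXA matches (TGTTTAC) stood at 43.9 in control and 59.5 in HNF4G-KO. In all, 15 control regions (3 control-only, 20.0%) and 14 HNF4G-KO regions (1 KO-only, 7.14%) were listed. The whole-list shares were 25.0% and 6.76%.

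In the KPC lines strong Gata6 regions lay on both sides of the gene. Those upstream were in introns of the long noncoding gene 1010001N08Rik. They stood at 96.0 in the primary tumor and 89.3 in mets (16.6 kb upstream, 1 AP-1 match), at 92.2 and 83.2 (35.9 kb, 3 AP-1 matches) and at 82.1 and 64.2 (42.4 kb, 2 AP-1 matches). The region 113.0 kb downstream of the start fell from 88.7 to 74.6. Of the 8 shared regions, only that at the start site and 1 at 50.8 kb (48.9 and 69.3) were higher in mets. Tumor-only regions lay 30.7 and 27.2 kb upstream (27.1 and 5.22) and 110.1 kb downstream (34.1), and the single mets-only region lay 10.6 kb upstream, at 28.0. No listed region lay in the Gata6 gene beyond the one at its start. In all, 11 primary tumor regions (3 tumor-only) and 9 mets regions (1 mets-only) were listed.

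**Figure D2:**
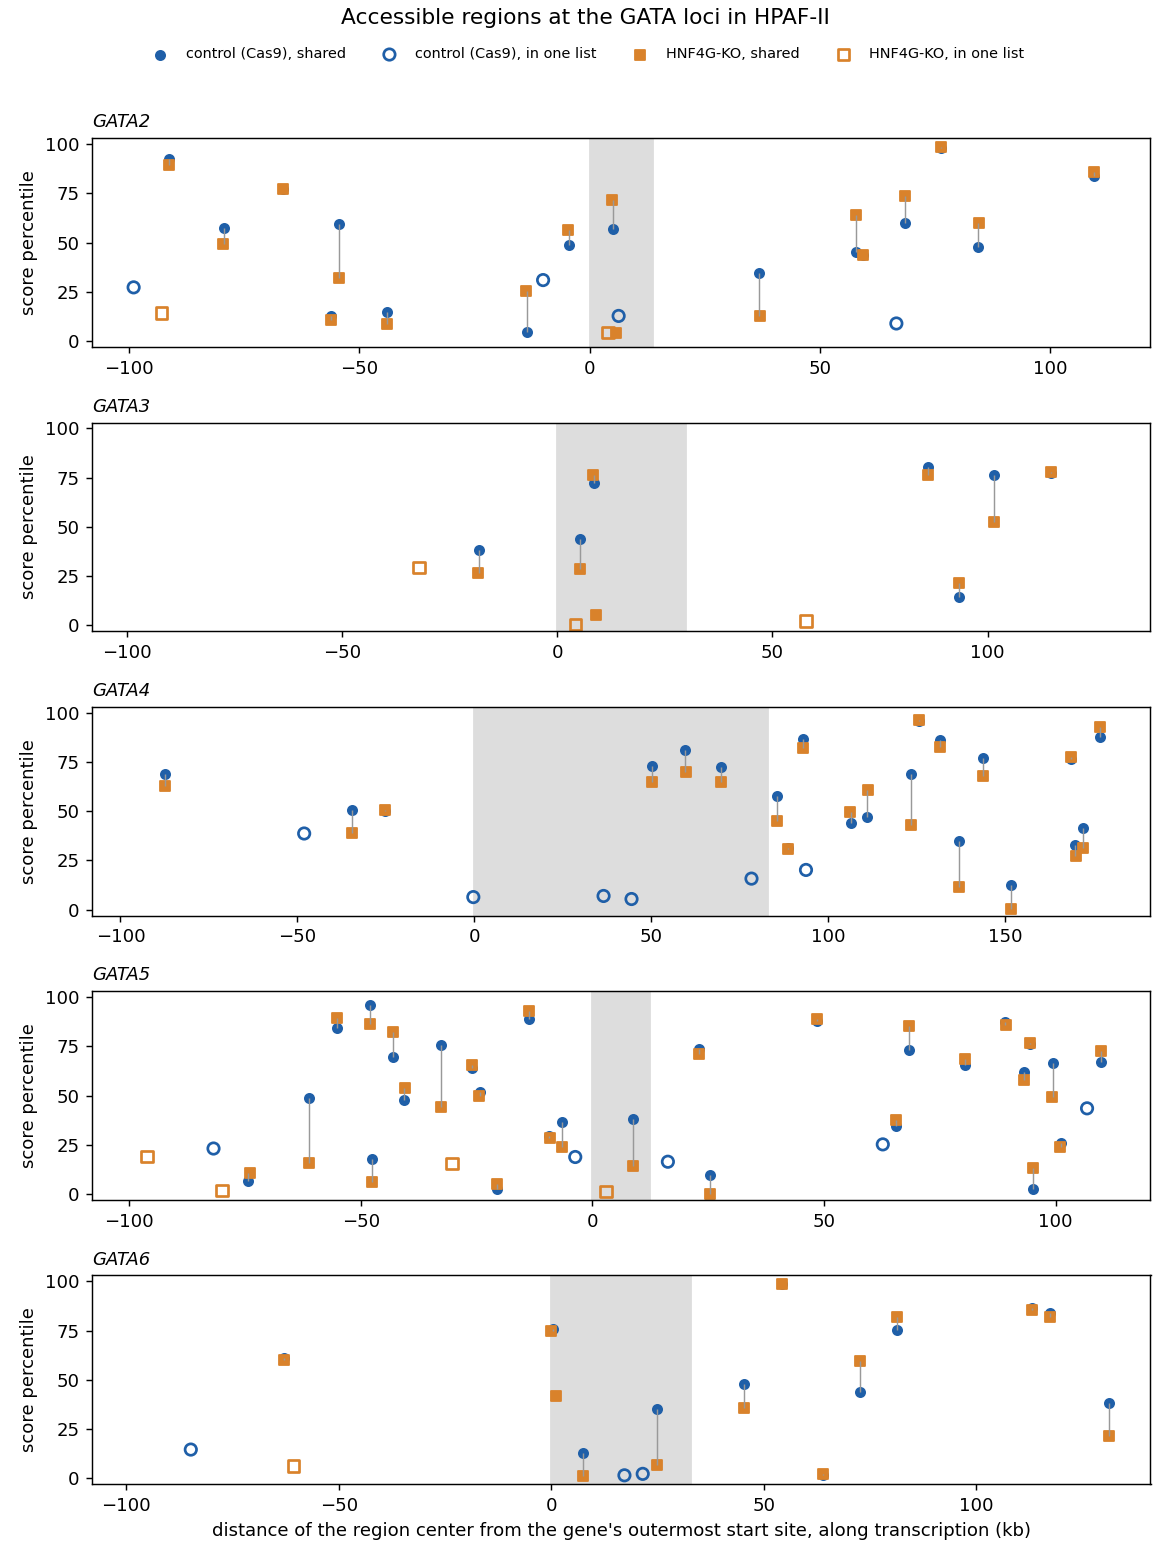
Score percentile of every region at the 5 GATA loci in HPAF-II against the distance of its center from the outermost start site in kb, positive along transcription. Filled circles are control (Cas9) regions and filled squares HNF4G-KO regions that are shared, open symbols are regions in one list, gray lines join a control region to its counterpart and the gray band is the gene body. Open symbols sit at percentile 43.5 or lower, and the GATA6 regions at 0.4 and 54.2 kb stay high in both lists.

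GATA5 had the most regions of the human loci, 33 in control and 32 in HNF4G-KO, in a window that also holds LAMA5, RPS21, CABLES2 and RBBP8NL. The gene lies at chromosome 20, 62463497 to 62475995, on the minus strand. No listed region covered its single annotated start in either HPAF-II list. The nearest one was 3458 bp away in control and 2842 bp away in HNF4G-KO. Beside the conserved element at 13.7 kb, strong regions lay further upstream, at 48.0 kb (95.8 in control, 86.5 in HNF4G-KO) and 55.1 kb (84.1 and 89.2). The strong regions on the other side covered start sites of neighbors, RBBP8NL at 87.9 and 88.8 and RPS21, a ribosomal protein gene, at 87.4 and 85.7.

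The larger falls at GATA5 were among regions of middle rank. A region 32.7 kb upstream, with a FOXA match, stood at 75.7 in control and 44.4 in HNF4G-KO. Another at 61.2 kb stood at 49.0 and 15.5, and one inside the gene, 8.7 kb from the start, at 38.1 and 14.2. The opposite was seen at 43.1 kb upstream (69.8 and 82.5). The 5 control-only regions stood between percentiles 16.4 and 43.5, and 3 of them held an AP-1 match. The 4 KO-only regions stood between 1.31 and 19.1, the weakest of them 2.9 kb into the gene. Of 28 shared control regions, 14 were lower and 14 higher in HNF4G-KO. Over the whole control list, 62050 of 88632 shared regions were lower and 26582 higher.

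In the KPC lines the Gata5 start was accessible, in a region of 1344 bp at percentile 59.5 in the primary tumor and 57.9 in mets. Of 20 shared regions, 15 stood higher in mets, as did 40446 of 62280 over the whole primary tumor list. Several of the 15 were nearer to neighbors, such as the region over the Rps21 start (76.1 and 88.2), one 85.3 kb downstream of the Gata5 start (62.2 and 85.3) and one near Lama5 (20.8 and 49.6). Closer to Gata5, a region 12.6 kb upstream stood at 20.3 and 44.6, and regions downstream of the gene at 19.9, 29.1 and 43.0 kb from the start went the other way (63.1 and 41.8, 52.5 and 40.8, 61.9 and 46.4). The 2 of these at 29.1 and 43.0 kb each held a GATA match in the primary tumor list, as did 8.05% of that whole list. In mets only the one at 43.0 kb held it. Tumor-only and mets-only regions numbered 4 each, at percentiles of 0.677 to 16.1 and 4.65 to 21.7.

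GATA4 had the widest gap in number between the HPAF-II lists, with 27 regions in control and 21 in HNF4G-KO. It lies at chromosome 8, 11676959 to 11760002, on the plus strand. No region covered any of its 8 start sites. The nearest, 210 bp from the outermost start, was a control-only region of 248 bp at percentile 6.42, and in HNF4G-KO the nearest was 25051 bp away. The other control-only regions stood at 38.7 (48.1 kb upstream), at 6.99, 5.44 and 15.8 in GATA4 introns and at 20.2 in a NEIL2 intron. Control-only regions made up 22.2% of the locus, against 25.0% of the whole control list. None of the 21 HNF4G-KO regions was KO-only, against 6.76% of the whole HNF4G-KO list. Of all protein-coding gene windows with 21 HNF4G-KO regions, 31.3% also had no KO-only region. The whole lists held 118107 regions in control and 97047 in HNF4G-KO.

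Stronger GATA4 regions were shared. Those inside the gene stood at 73.1 in control and 65.0 in HNF4G-KO (50.1 kb from the start), 81.0 and 69.7 (59.6 kb) and 72.4 and 65.0 (69.6 kb), each somewhat lower in HNF4G-KO. The median change over all shared control regions was also a fall, of -4.65 points. Ranked among shared regions alone, the 3 changes were -1.78, -7.19 and -0.825 points. The highest ranks in the window belonged to start sites of neighbors. They were FDFT1, the squalene synthase gene (95.6 and 96.5), CTSB, the gene of the lysosomal protease cathepsin B (87.8 and 92.9), and NEIL2, a DNA repair glycosylase gene (86.6 and 82.1). The region with an HNF4 match at this locus lay over another FDFT1 start (86.0 and 82.7).

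The mouse Gata4 locus held 34 regions in each KPC list, with 2 tumor-only and 1 mets-only (16.4, 13.4 and 10.1). Unlike its human counterpart it had listed regions over start sites, at 14.1 in the primary tumor and 25.2 in mets over the outermost one and at 46.2 and 50.2 over an inner one. Of 32 shared regions, 21 were higher in mets, a share near that of the whole primary tumor list (40446 of 62280). Among the 21 were 1 at 1.3 kb upstream (27.8 and 56.0) and several near Fdft1 and Ctsb (18.8 and 60.7 over an Fdft1 start, 32.1 and 66.3 near Ctsb). The control-only region 48.1 kb upstream of human GATA4 aligned over 299 columns with 90.3% identity to mouse DNA inside the region 54.5 kb upstream of Gata4, which stood at 83.2 in the primary tumor and 59.7 in mets.

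Among shared primary tumor regions at the 5 Gata loci, each paired with its longest overlap in mets, the largest fall lay 10.4 kb upstream of Gata4. It went from percentile 76.3 in the primary tumor to 41.3 in mets, by 35.0 points. The sequence around its 2 AP-1 matches (capitals) is shown for that reason, from chr14:63281964-63282144 in mm10 on the strand of the gene.
mouse Gata4 upstream element: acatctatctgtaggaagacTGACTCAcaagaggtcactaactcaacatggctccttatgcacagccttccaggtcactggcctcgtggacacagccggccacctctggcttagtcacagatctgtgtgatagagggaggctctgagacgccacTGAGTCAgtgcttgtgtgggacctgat

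GATA2 kept its strongest regions in both HPAF-II lists. The gene lies at chromosome 3, 128479427 to 128493201, on the minus strand, in a window with EEFSEC and DNAJB8. The region 76.3 kb downstream of the outer start stood at 98.2 in control and 98.7 in HNF4G-KO, that 91.3 kb upstream at 92.6 and 89.6, and that in an EEFSEC intron at 84.0 and 86.1. The region over the inner start stood at 57.0 in control, and overlapped 2 HNF4G-KO regions, at 71.4 (the longest overlap) and 4.27. A further 4 regions rose by over 10 points, among them 1 at 57.8 kb with a GATA match (45.3 and 63.8) and 1 at 13.7 kb upstream (4.70 and 25.6). Falls over 10 points were seen at 54.5 kb upstream (59.3 and 31.8) and 36.8 kb downstream (34.8 and 13.0).

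The 4 control-only GATA2 regions stood between 8.97 and 31.0, and one of them, 6.3 kb from the outer start in an exon, aligned with mouse DNA over 315 columns with 85.7% identity. That region ended at 128487099. The weaker HNF4G-KO region overlapping the inner-start region (4.27) began close by, at 128487252. The KO-only regions stood at 4.27, beside the inner start over a start site of the antisense gene GATA2-AS1, and at 14.2. The mouse window was sparse, with 8 primary tumor and 7 mets regions, and no region covered a Gata2 start. A region 4.1 kb upstream of Gata2 (51.1 and 40.8) aligned with the human one 4.4 kb upstream of GATA2 (48.7 and 56.5). The mouse DNA that aligned with the human inner-start region (594 columns, 74.9% identity) lay in no listed KPC region. The 1 tumor-only region stood at 3.86.

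GATA3 was the sparsest human locus and the only one with more regions in HNF4G-KO (11) than in control (7). It lies at chromosome 10, 8045378 to 8075198, on the plus strand, beside TAF3. The region over the inner start and the start of the antisense gene GATA3-AS1 was 1355 bp wide at percentile 72.1 in control, and was listed in HNF4G-KO as 2 regions at 76.4 and 5.19. None of the 7 control regions was control-only. The 3 KO-only regions lay in a TAF3 intron (29.5), 4.3 kb into GATA3 (0.348) and 57.8 kb from the start (2.35), so 2 of them were among the weakest of the list. A region 101.5 kb from the start fell from 76.2 to 52.6, and the one at 114.6 kb stood at 77.2 and 77.8.

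In the KPC lines Gata3 had 17 regions in each list. The strongest lay in a Taf3 intron 66.1 kb upstream of Gata3 and held an HNF4 match (95.2 in the primary tumor, 91.7 in mets). The human inner-start region aligned over 1318 columns with 67.5% identity to mouse DNA inside the gene. That DNA ran from the listed region at 10.5 kb (83.8 and 82.5) into the one at 11.5 kb, which covered a start site at a lower rank (21.6 and 29.2). The mets-only regions stood at 2.15 and 7.15. Of the tumor-only regions, 1 stood at 0.759 inside the gene and the other was the strongest one-list region at any GATA locus, 999 bp wide in a Taf3 intron 82.4 kb upstream at percentile 70.0. Around its AP-1 match (capitals) it reads, from chr2:9972113-9972272 in mm10 on the strand of Gata3, as follows.
mouse tumor-only element: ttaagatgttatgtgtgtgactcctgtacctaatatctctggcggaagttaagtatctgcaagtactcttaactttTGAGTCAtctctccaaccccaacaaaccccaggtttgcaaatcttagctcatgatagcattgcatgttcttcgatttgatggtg

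**Figure D3:**
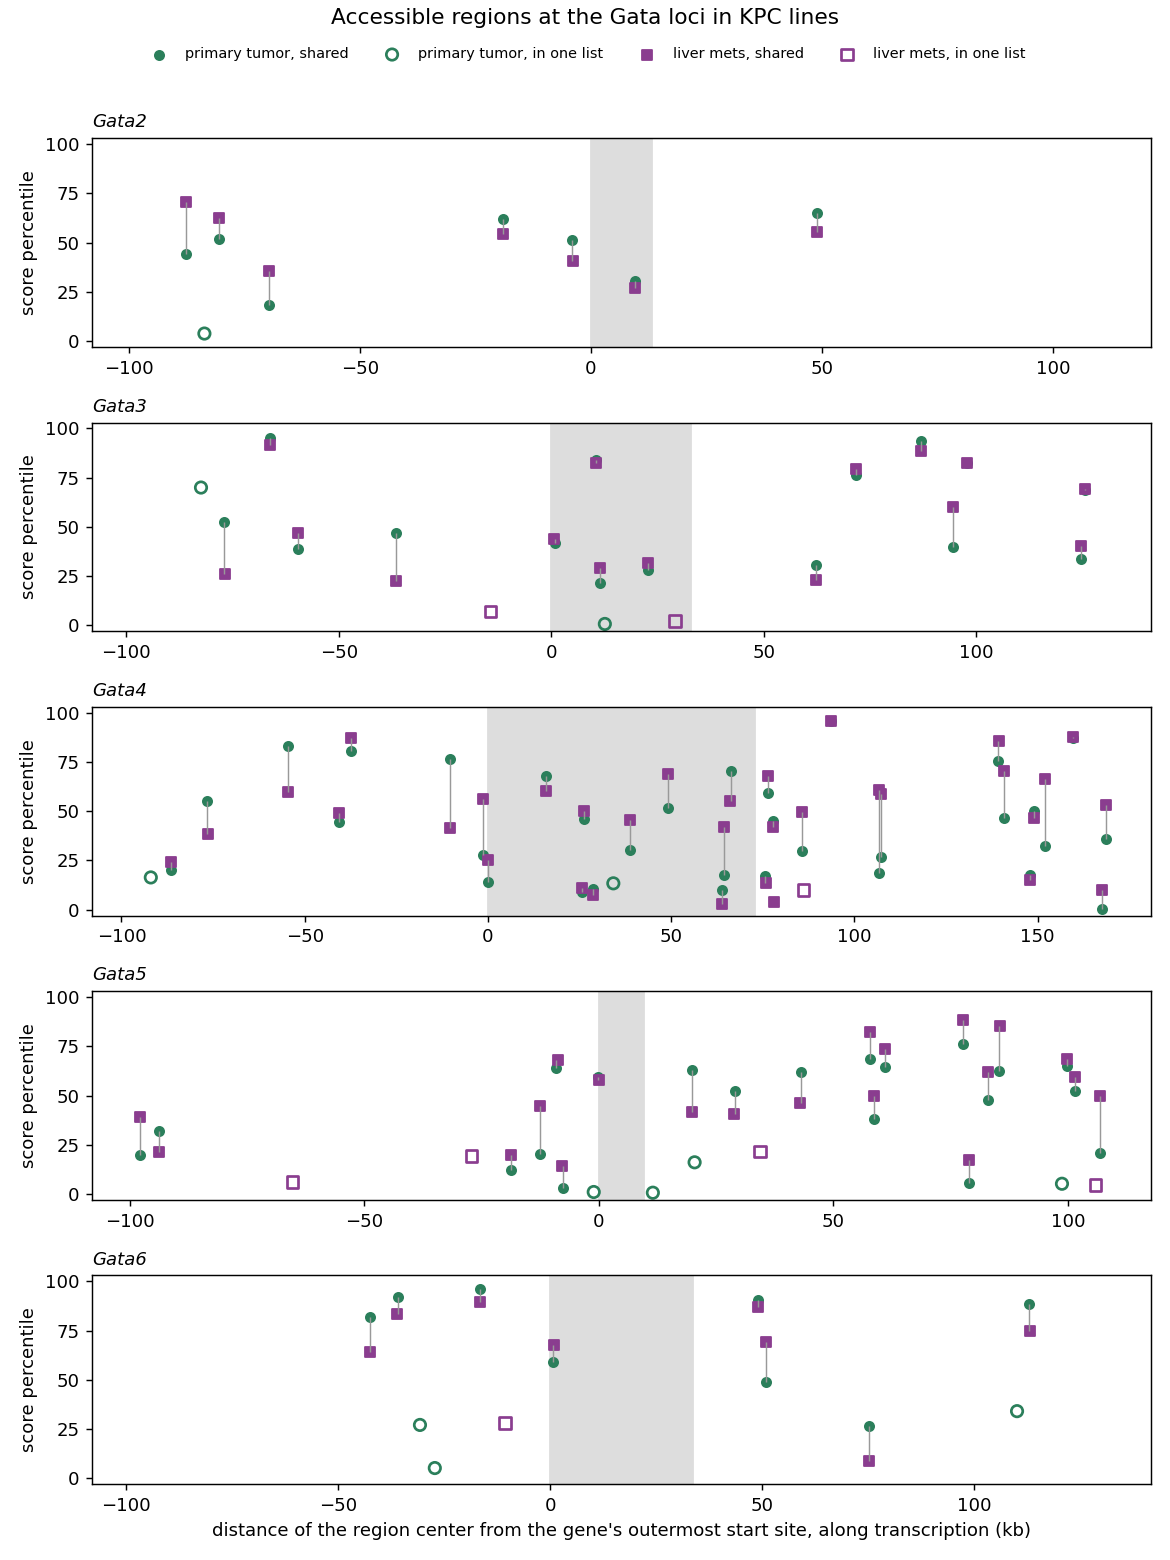
Score percentile of every region at the 5 Gata loci in the KPC lines against the distance of its center from the outermost start site in kb, positive along transcription. Filled circles are primary tumor regions and filled squares liver mets regions that are shared, open symbols are regions in one list, gray lines join a primary tumor region to its counterpart and the gray band is the gene body. The tumor-only Gata3 region at percentile 70.0 stands apart from the other open symbols, and the upstream Gata6 squares lie below their circles.

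HNF4 matches at the GATA loci lay in shared regions in every list, 3 of 102 in control, 3 of 97 in HNF4G-KO, 4 of 94 in the primary tumor and 4 of 91 in mets. The shares were 2.94%, 3.09%, 4.26% and 4.40%, above the whole-list shares given for the GATA5 element, but from counts this small. FOXA matches were in 13 control regions (12.7%, 9.76% of the list) and 13 HNF4G-KO regions (13.4%, 9.51%), all shared, and in 7 primary tumor (7.45%, 9.71%) and 7 mets regions (7.69%, 8.90%). An AP-1 match was found in 7 of 18 control-only and none of 10 KO-only regions, and in 5 of 12 tumor-only and 4 of 8 mets-only regions. Over all one-list regions of these lists the shares were 23.5%, 20.4%, 32.9% and 33.3%. Over all regions at the loci the shares were 34.3% in control, 26.8% in HNF4G-KO, 40.4% in the primary tumor and 39.6% in mets.

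Of the 102 control regions, 47 (46.1%) aligned with the mouse window of the same gene in matching order, and 21 of these lay over a listed KPC region. GATA3 (5 of 7) and GATA6 (10 of 15) had larger shares aligned than GATA2 (8 of 20), GATA4 (12 of 27) and GATA5 (12 of 33). Of the 18 control-only regions 8 aligned, and 4 of these lay over a KPC region. Inside aligned DNA, the mouse sequence held the same consensus at 3 of 3 GATA matches, 1 of 1 HNF4 match, 3 of 5 FOXA matches and 7 of 11 AP-1 matches. Human and mouse lists come from different lines and were set side by side without a test.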

How the data were processed

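Omni-ATAC libraries of 16 samples (4 groups of 4 replicates, assigned from their titles) were processed by the authors into 1 BED list of regions per group. The submitters' processing notes name Bowtie2 2.2.6, MACS2 2.1.1.20160309 and DiffBind. The study gives pooling of replicates and a MACS2 q-value limit for its ChIP-seq. For ATAC-seq, how replicates were combined, the peak threshold and any shift of reads to the insertion site are not given in the sources used here, and the methods name HPAF-II only. The deposited score of each region is of unstated scale and was ranked within its list only. Reads per replicate were not analysed here, so no count-based test was run and n is 1 list a group. Whether depth or calling differed between lists was not tested.

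Sharing needed 1 bp of overlap, and a shared region was paired with its longest overlap. Start sites and gene bodies came from GENCODE v44 and vM21, and no region ran past the end of its hg38 or mm10 chromosome. Each region was searched on both strands for the consensus of GATA, HNF4, FOXA and AP-1 (spelled out in the text), TEAD (ACATTCCA), RUNX (TGTGGTTT), ETS (CCGGAAGT), KLF (GGGCGTGGC or GGGTGTGGC), HNF1 and CTCF. HPAF-II regions were aligned to the mouse window with blastn 2.17.0+ (e-value limit 1e-05), keeping 1 hit a region and the chain of hits in the same order in both species, which left out 5 control and 4 HNF4G-KO hits. The overlap step was tested on simulated data against bedtools 2.31.1.

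By rule the text gives every one-list region and the 5 strongest regions of each gene and list, singly or by range, and those over member start sites. Regions with large percentile changes were added after their values were seen. The 10-point limit was also set after the values were seen. Members, gene lists and alternatives were chosen with earlier results of these data known. Alternatives covered overlap, score limit, list size, window, width, distance from start sites, ranking and pairing.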

Additional observations from a re-analysis of the deposited data

How the results depend on the processing

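No paired analysis was possible because each group is 1 list and no result comes from a test across replicates, and for the same reason no replicate could be left out. Of 44 values under other settings, 28 stayed within 1.5 times the reported value with the same sign. Control-only regions (18 as reported) numbered 8 in the upper 50% of both lists (16.7%, whole list 22.1%), 5 in lists of equal size (6.67%, whole list 13.7%) and 9 with a 10 kb window (36.0%, above the 25.0% of the whole list). KO-only regions (10) numbered 17 with 50% reciprocal overlap (17.5%, whole list 17.5%), 6 in the upper 50% (13.0%, whole list 4.38%), 3 with a 10 kb window (13.6%) and 6 with a 50 kb window (10.9%). Tumor-only regions (12) numbered 4 and 7 with the 10 kb and 50 kb windows (14.3% and 12.5%), and 9 in the upper 50% (22.0%, whole list 8.46%). Mets-only regions (8) numbered 13 with reciprocal overlap (14.3%, whole list 27.0%), 1 in lists of equal size (1.43%, whole list 13.0%) and 1 with a 10 kb window (3.85%). In the upper 50% they numbered 11 (25.6%), above the whole-list share of 22.2%. The smaller windows hold fewer regions by construction. In the upper 50% and in lists of equal size, a region whose partner fell below the cut also counts as one-list. In the full lists, one-list regions at the loci reached percentile 43.5 at most in control, 29.5 in HNF4G-KO and 28.0 in mets. The upper-50% counts of these 3 lists are therefore of regions shared in the full lists. The cause of the other shifts was not tested. The median percentile change from control to HNF4G-KO (-1.45) was 3.07 when ranked among shared regions and -7.77 with a 10 kb window. That from the primary tumor to mets (3.74) was -0.246 when ranked among shared regions and 2.03 with a 50 kb window. Read depth is unknown, so a region missing from a list may lie just under its threshold, and weak one-list regions are the least certain.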

Other observations

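Regions were also counted around 13 related genes, 6 other genes with a GATA-type zinc finger and 7 genes of GATA cofactors. In HPAF-II, 60 of the 258 control regions in their windows were control-only (23.3%) and 14 of the 218 HNF4G-KO regions were KO-only (6.42%). In the KPC lines they held 195 primary tumor regions with 15 tumor-only (7.69%) and 216 mets regions with 29 mets-only (13.4%). ZFPM2, the gene of the cofactor FOG2, had the most control-only regions of these genes (16 of 39). At TAL1, a hematopoietic partner of GATA factors, the median percentile change of shared regions from control to HNF4G-KO was -16.7 points, with no region over a start site in either list. GATA1, the erythroid member of the family, had no region over a start site in any list. GATAD2A and GATAD2B, subunits of the NuRD complex, had start-site regions at percentile 99.0 and 96.8 in control and at 97.8 and 98.6 in the primary tumor.

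The chromosomes of the loci differed in their one-list shares. Tumor-only regions made up 12.5% of primary tumor regions on the Gata6 chromosome and 7.35% to 9.03% on those of the other Gata genes. Control-only regions made up 18.5% of control regions on the GATA3 chromosome and 24.3% to 25.3% on the other 4, and mets-only regions made up 22.9% of mets regions on the Gata4 chromosome, where the Gata4 locus had 1 of 34.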
